A study of Mus musculus with 35 samples.

Results

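Matricellular proteins are secreted proteins that sit in the extracellular matrix and act on cells rather than serving as structural fibres. The 10 genes described here encode 9 of them and fibronectin, and were taken by symbol out of the 55487 genes of each table: Ccn1, Ccn2, Ccn4 and Ccn5 of the CCN family, the thrombospondins Thbs1 and Thbs2, the tenascin Tnc, the periostin gene Postn, Sparc, and Fn1. All 10 were found in all 4 tables and passed the filter on low counts in every fit. RNA-Seq counts came from 27 libraries of cardiac fibroblasts (CFs), cultured from adult mouse hearts by enzymatic dissociation and attachment to collagen-coated plates, and from 8 whole hearts. The CF libraries form 3 tables, of untreated CFs, CFs given IL-17 and CFs given TGF-β, and each table holds 3 libraries with a scrambled control siRNA (Scrambled) and 3 with each of a pair of siRNAs, IAMP-siR-1 and IAMP-siR-2, called siR-1 and siR-2 here. Both siRNAs target 4930523C07Rik, the gene of the micropeptide IAMP, so the 27 libraries all come from transfected cells. In the untreated and IL-17 tables the columns carry the siRNAs' code numbers, which were tied to siR-1 and siR-2 through the sample descriptions of the TGF-β table. The labels give 24 h of siRNA followed by 24 h of IL-17, and the times for the other CFs are not given in the sources used here. The hearts came from 8-week-old C57BL/6 mice under basal conditions, 4 heterozygous for the IAMP allele (Het) and 4 homozygous (IAMP-KO). The allele is a germline frameshift made with CRISPR-Cas9, present in every cell type, and the Het controls carry 1 copy of it. The labels do not say whether replicate CF libraries were separate cultures, so the p values measure only the spread between these libraries, which may be technical.

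These proteins link cells, growth factors and the fibrous matrix. CCN1 and CCN2 are short-lived products of early response genes and are widely used as readouts of YAP and TEAD, CCN4 is known as a Wnt-induced protein, and CCN5 lacks the C-terminal domain that most of the family has. Thrombospondin 1 releases TGF-β from its latent complex and binds CD47 and CD36, while thrombospondin 2 shares much of its structure. Tenascin C and periostin are made at sites of injury and remodelling, SPARC binds collagen and takes part in its assembly, and fibronectin forms fibrils to which integrins attach. In the heart, fibroblasts are a main source of them, with low levels at rest and higher levels after injury.

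The files use GRCm38, and the positions that follow are those of the GENCODE vM21 annotation of that build. Postn lies on chromosome 3 (54361109 to 54391037, plus strand) and Ccn1 on the same chromosome (145646976 to 145649981, minus strand). Ccn5 (163820861 to 163833146) and Thbs1 (118111876 to 118127133) are both on the plus strand of chromosome 2. Ccn2 is on chromosome 10 (24595442 to 24598683, plus strand), Ccn4 on chromosome 15 (66891320 to 66923201, plus strand), and Tnc on chromosome 4 (63959785 to 64047015, minus strand). Thbs2 is on chromosome 17 (14665500 to 14694235, minus strand), Sparc on chromosome 11 (55394500 to 55423183, minus strand) and Fn1 on chromosome 1 (71585520 to 71653200, minus strand). Exons of 4 of them overlap a gene on the other strand, over 665 bases of Ccn2, 292 of Fn1, 208 of Thbs1 and 176 of Tnc, and since the strand setting of the counting is not given in the sources used here, reads there cannot be told apart from those of the overlapping gene.

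RefSeq promoter windows, from 250 bases before to 50 bases after a gene's start, were at hand for 5 of the 10 genes (Postn, Ccn1, Tnc, Thbs2 and Sparc). They were searched on both strands for GGAATG, the core that TEAD factors bind, CAGACA, a SMAD-binding element, TGACTCA, the AP-1 element, and the CArG box of SRF. GGAATG was in 1 of the 7 windows of these genes and in 14.7% of all 32851 windows, and CAGACA in 4 of the 7 and in 21% of all. The windows with CAGACA were those of Tnc, Thbs2 and Sparc. Tnc has overlapping windows that hold the same CAGACA site, so that site is counted more than once. Neither TGACTCA (5.2% of all windows) nor a CArG box (1.63%) was in any of the 7. Ccn1 is shown because it is a usual TEAD readout and Thbs2 because it was lower with siR-2 in all 3 CF tables. Both stretches are read 5′ to 3′ on the gene's own strand (minus) from build GRCm38.p6, the first from chr3:145650071-145650100 and the second from chr17:14694312-14694341, and the capitals mark the match, here on the reverse strand.
Ccn1: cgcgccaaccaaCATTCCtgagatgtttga
Thbs2: gcctgcccctctTGTCTGactcctccccgg

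Totals ran from 104139670 to 119232309 estimated counts per CF library and from 23497027 to 23857313 counts per heart. Levels are given as CPM after TMM normalization, on 1 scale for the 27 CF libraries and another for the 8 hearts. The IAMP gene stood at 16.8 to 25.7 CPM in the 9 Scrambled libraries and at 1.68 to 4.58 CPM in the 18 knockdown libraries. Each siRNA lowered it in every table, with log2 fold changes from −2.23 to −3.69. In hearts the transcript was at 15.9 to 18.8 CPM in Het and 15.1 to 17.3 CPM in IAMP-KO, and since the allele is a frameshift the counts do not check the genotype. All 6 fibroblast markers (Pdgfra, Dcn, Lum, Col1a1, Col1a2 and Tcf21) were at 1 CPM or more in every CF group. Their summed level was 8330 to 8462 CPM in untreated Scrambled libraries and 13993 to 14589 CPM in the TGF-β Scrambled libraries. In untreated CFs it was 11088.5 to 11394 CPM after siR-1 and 7838 to 8064 CPM after siR-2. Under IL-17 it was 8195 to 8311 CPM in Scrambled, 10333 to 10767 CPM after siR-1 and 7936 to 8189 CPM after siR-2. Under TGF-β the siRNAs gave 14481 to 14816 CPM and 15656 to 16429 CPM. Col1a1 was the most abundant of the 6, and their part in the results below was not tested. Of the 6 cardiomyocyte markers, 5 were under 1 CPM in every CF group and the sixth was Tnnt2.

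In CFs the 10 genes were abundant, making up 2.95% ± 0.0976 of all counts in untreated Scrambled libraries (SD, n = 3), 3.08% ± 0.00758 under IL-17 and 2.51% ± 0.0402 under TGF-β. In hearts they made up 0.0528% ± 0.00820 (SD, n = 4) in Het and 0.0518% ± 0.00199 in IAMP-KO. On the scale of CPM per kilobase of exon, which allows a rough comparison between genes, the level in untreated Scrambled CFs fell in the order Thbs1 (1459), Sparc (1222), Ccn2 (914), Fn1 (676), Ccn1 (405), Postn (186), Tnc (163), Ccn5 (98.2), Thbs2 (47.5) and Ccn4 (27.5). The length used was that of all annotated exons merged, from 1 transcript for Ccn1 to 17 for Fn1, so the order can depend on the annotation. No 2 neighbours in that order overlapped between the 3 libraries, and the 27 libraries are set out gene by gene in the plot of CPM by siRNA and table. The order differed under TGF-β, where Sparc (1843 CPM per kilobase) led, Ccn5 (605) reached the level of Fn1 (604) within the spread, Thbs1 (363) overlapped with Ccn1 (331), and Tnc (36.4) was last.

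**Figure D1:**
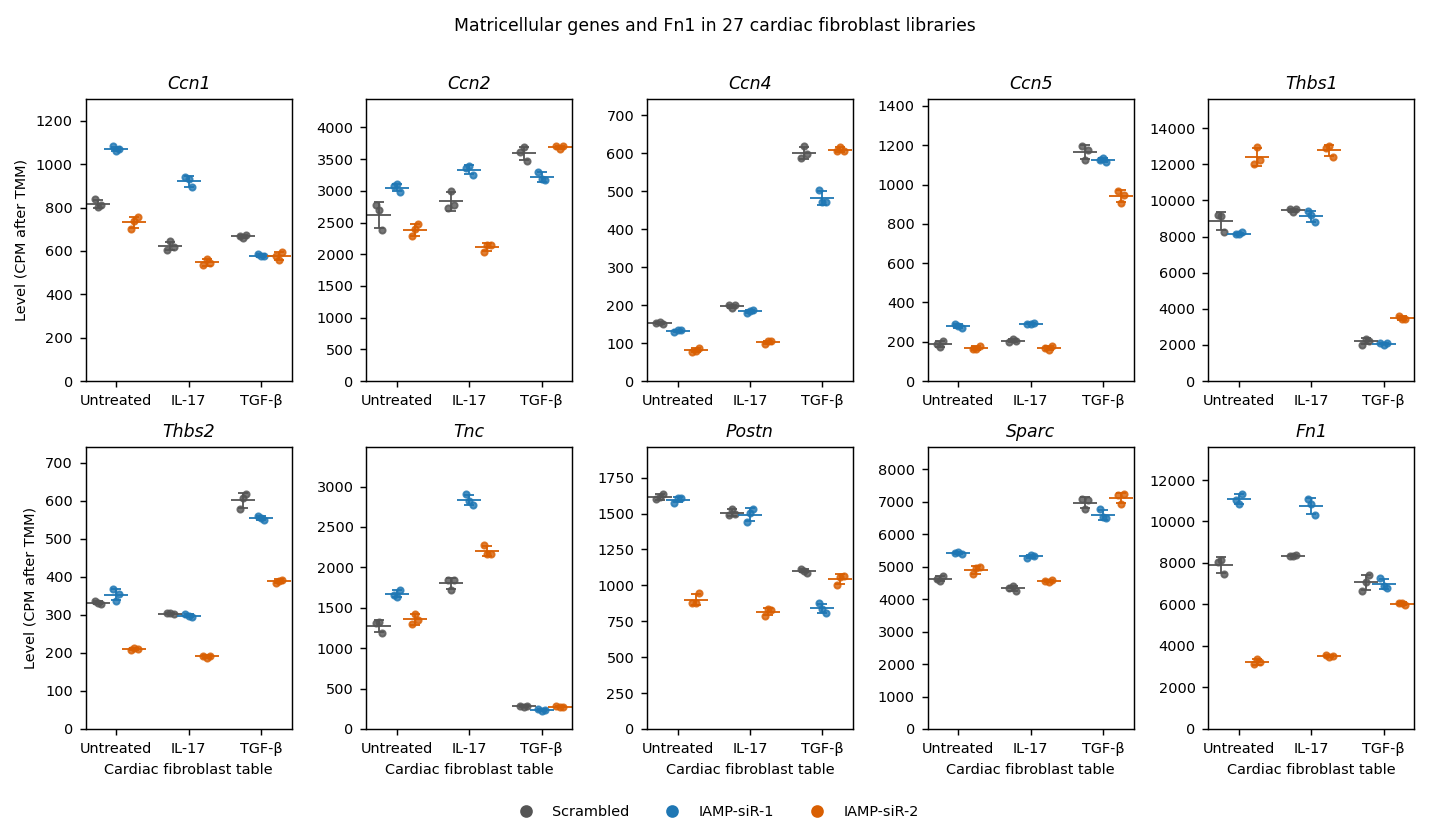
Levels in CPM after TMM (vertical axes, each starting at 0) of the 10 genes in the untreated, IL-17 and TGF-β tables (horizontal axes). Points are the 27 libraries, coloured by siRNA, and bars are the mean and SD of 3 libraries. Fn1 is lowest with siR-2 in each table, Thbs1 is highest with siR-2 in each table, and Ccn4, Ccn5 and Thbs2 stand higher while Tnc and Thbs1 stand lower in the TGF-β table.

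The first question was how knockdown of IAMP moved these genes in unstimulated CFs. siR-1 mostly raised the genes by small amounts, while siR-2 lowered most of them, Fn1 the most. In these bulk libraries, fewer cells of a type and less RNA per cell cannot be told apart. Of the 10 genes, siR-1 raised 7 and lowered 2 with an adjusted p at or under 0.05 (edgeR quasi-likelihood F test, adjusted by Benjamini-Hochberg over 19669 genes), beside 19.5% of all genes higher and 20.4% lower. siR-2 raised 1 and lowered 7, beside 24.4% and 25.0% of all genes. At the study's fold limit for untreated CFs, a log2 fold change of 1 or more in size, siR-1 moved 0 of the 10 in edgeR and in DESeq2 (4.76% of all genes passed) and siR-2 moved only Fn1 (10.7% passed), joined by Ccn4 without siR-2 replicate 3. The median log2 fold change of the 10 was 0.22 for siR-1 but −0.18 for siR-2, against −0.016 and −0.020 over all genes. Both comparisons use the same Scrambled libraries, so the siRNAs were also tested against each other: siR-2 was lower than siR-1 for 9 genes and higher for Thbs1, beside 22.8% and 22.7% of all genes. The median of that difference was −0.65 on the log2 scale, against −0.019 over all genes.

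Fn1 showed the widest distance between the siRNAs. Its level was 8071, 8165 and 7466 CPM in the Scrambled libraries, 11058, 10826 and 11309.8 CPM after siR-1 and 3110.2, 3384 and 3213 CPM after siR-2. The 3 groups did not overlap, with siR-1 on top and siR-2 at the bottom. The log2 fold change against Scrambled was 0.48 (SE 0.0351, adjusted p = 1.04e-08) for siR-1 against −1.31 (SE 0.0356, adjusted p = 2.24e-14) for siR-2, and siR-2 differed from siR-1 by −1.79 (SE 0.0361). Postn, which encodes a marker of activated fibroblasts, passed with siR-2 and not with siR-1, and siR-2 differed from siR-1 by −0.84 (SE 0.0333, adjusted p = 4.07e-12). It stood at 1599, 1613 and 1634 CPM in Scrambled and 1575, 1611 and 1609 CPM after siR-1, which overlapped, and at 877, 878 and 949 CPM after siR-2, all below both. Its log2 fold change was −0.022 with siR-1 (95% interval −0.087 to 0.043, adjusted p = 0.672) and −0.86 (SE 0.0333, adjusted p = 1.44e-12) with siR-2.

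In the CCN family, Ccn4 was the member that fell with each siRNA. It was at 153, 156 and 149.7 CPM in Scrambled, 129, 135 and 133 CPM after siR-1 and 75.9, 79.4 and 86.7 CPM after siR-2, without overlap. The log2 fold changes were −0.21 (SE 0.0425, adjusted p = 0.00061) and −0.94 (SE 0.0431, adjusted p = 1.17e-11). Ccn5, Ccn1 and Ccn2 were higher with siR-1 and lower with siR-2, the falls being small. Ccn5 was at 190.0, 174 and 203 CPM in Scrambled, 292, 281 and 271 CPM after siR-1 and 165, 164 and 179 CPM after siR-2, the last overlapping with Scrambled. Its log2 fold changes were 0.57 (SE 0.0548) and −0.18 (SE 0.0548). Ccn1 was at 838, 802 and 811 CPM, 1082, 1063 and 1071 CPM and 701, 739 and 754 CPM in the same order, and its groups did not overlap. Its log2 fold changes were 0.39 (SE 0.0307) and −0.18 (SE 0.0306). Ccn2, also called connective tissue growth factor, was at 2771, 2696 and 2381 CPM in Scrambled, 3075, 3102 and 2983 CPM after siR-1 and 2282, 2404 and 2474 CPM after siR-2. Here siR-2 overlapped with Scrambled, and the log2 fold changes were 0.22 (adjusted p = 0.00173) and −0.15 (adjusted p = 0.0146). The siR-2 calls of Ccn2 and Ccn5 were lost without siR-2 replicate 1 or 2, and that of Ccn2 also without Scrambled replicate 1 or 2 (adjusted p up to 0.0709 for Ccn2 and 0.0710 for Ccn5).

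The 2 thrombospondins moved apart from each other. Thbs1 was at 9186, 9118 and 8271 CPM in Scrambled, 8131, 8142 and 8226 CPM after siR-1 and 12014, 12952 and 12219 CPM after siR-2, so that siR-2 lay above every other library. Its log2 fold change was −0.12 with siR-1 (adjusted p = 0.0108, and 0.0671 without Scrambled replicate 1) and 0.47 (SE 0.0359, adjusted p = 9.41e-09) with siR-2. Thbs2 was at 337, 331 and 329.9 CPM in Scrambled, 368, 337 and 355 CPM after siR-1 and 208, 212 and 211 CPM after siR-2, the lowest group. Its log2 fold change was −0.68 (SE 0.0314, adjusted p = 1.38e-11) with siR-2, and 0.081 with siR-1, where the adjusted p of 0.0483 rose above 0.05 in 11 of the 16 alternatives tried, 8 of them without 1 library (each of the 9 but siR-1 replicate 2, adjusted p up to 0.259). Tnc and Sparc rose with siR-1 and did not pass with siR-2, which differed from siR-1 by −0.32 and −0.16 (adjusted p = 3.77e-06 and 0.000111). Tnc was at 1307, 1317 and 1186 CPM in Scrambled, 1662, 1637 and 1725 CPM after siR-1 and 1298, 1427 and 1345 CPM after siR-2, with log2 fold changes of 0.39 (SE 0.0394, adjusted p = 4.63e-07) and 0.075 (95% interval −0.0021 to 0.15, adjusted p = 0.133). Sparc ran from 4558 to 4719.6 CPM in Scrambled, from 5394 to 5451 CPM after siR-1 and from 4764 to 4979 CPM after siR-2. Its log2 fold change was 0.22 (SE 0.0271, adjusted p = 4.34e-06) for siR-1 and 0.063 (95% interval 0.010 to 0.12) for siR-2, where the adjusted p was 0.065 in edgeR and 0.0128 in DESeq2.

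Some sums of markers of other cells differed between these groups while others overlapped, and their part in these results was not tested. The summed level of 4 mesothelial markers was 103 to 115 CPM in untreated Scrambled, 95.6 to 101 CPM after siR-1 and 60.2 to 64.6 CPM after siR-2, with 1 of them under 1 CPM. That of 5 macrophage markers was 54.3 to 58.4 CPM, 56.6 to 59.7 CPM and 71.9 to 76.0 CPM in the same order. The 6 cardiomyocyte markers, of which only Tnnt2 reached 1 CPM, summed to 90.2 to 98.0 CPM, 42.1 to 47.1 CPM and 27.7 to 32.7 CPM. The 5 markers of smooth muscle and pericytes summed to 57.7 to 66.5 CPM, 51.0 to 56.2 CPM and 44.8 to 54.9 CPM. Most of that was Cspg4 (58.5, 49.4 and 44.3 CPM on average), and 2 of the 5 were under 1 CPM. With siR-1, 1 of these 5 was higher and 1 lower, beside 19.5% and 20.4% of all genes. With siR-2, 0 were higher and 1 lower, beside 24.4% and 25.0%. The 5 endothelial markers summed to 46.8 to 52.6 CPM, 42.9 to 47.6 CPM and 41.2 to 45.5 CPM.

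**Figure D2:**
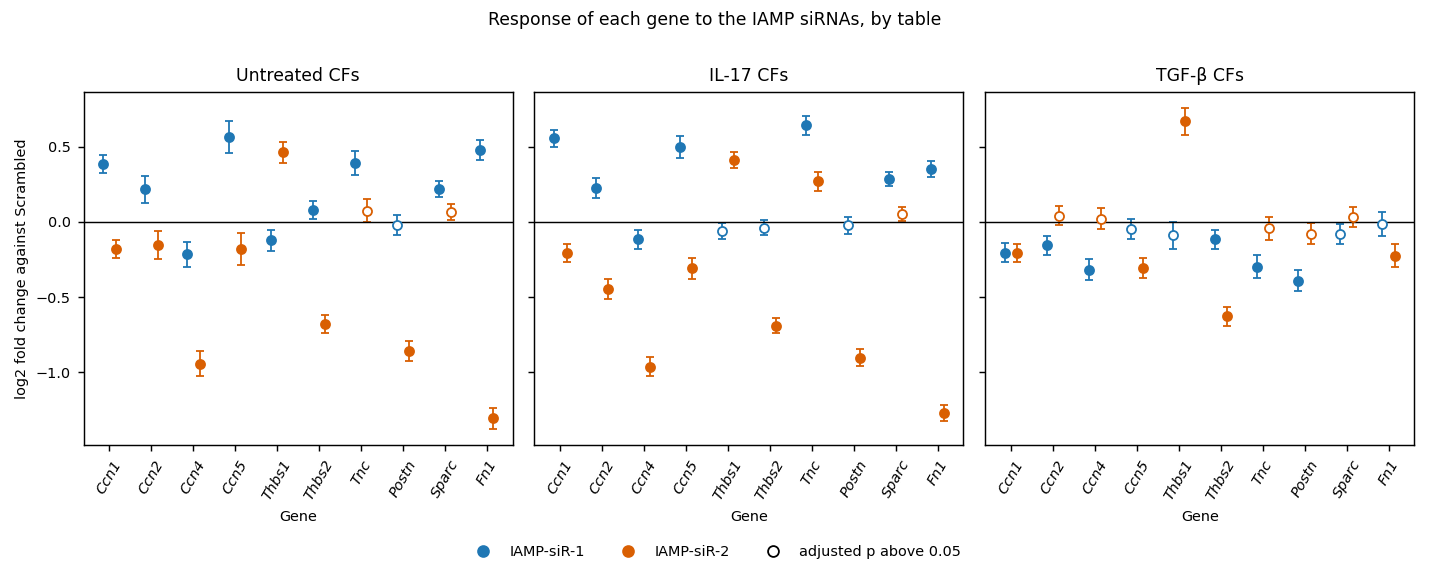
The log2 fold change against Scrambled (vertical axis) of each gene (horizontal axis) with siR-1 and siR-2 in untreated, IL-17 and TGF-β CFs, where bars are 95% intervals and open points have an adjusted p above 0.05. In untreated and IL-17 CFs Fn1 lies at −1.31 and −1.27 with siR-2 and above 0 with siR-1, whereas in TGF-β CFs all 10 siR-1 values are below 0.

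Under IL-17, the question was whether knockdown acted alike in an inflammatory setting. siR-1 raised 6 genes and lowered 1, beside 20.3% and 21.9% of the 19906 genes tested, and siR-2 raised 2 and lowered 7, beside 25.0% and 25.6%. At the study's limit for IL-17, a 1.5-fold change in either direction, siR-1 passed for 1 gene (13.5% of all genes) and siR-2 for 4 (21.7%). In the direct comparison, siR-2 was below siR-1 for 9 genes and above it for 1, beside 23.1% of all genes in each direction. The gene past the limit with siR-1 was Tnc, at 1840.1, 1722 and 1846 CPM in Scrambled, 2903, 2822 and 2776 CPM after siR-1 and 2272, 2170.2 and 2169 CPM after siR-2. Both knockdown groups lay above every Scrambled library, with log2 fold changes of 0.64 (SE 0.0317, adjusted p = 4.11e-11) and 0.27 (SE 0.0316, adjusted p = 1.21e-06). The 4 past the limit with siR-2 were Fn1, Ccn4, Postn and Thbs2, all lower. Fn1 was at 8332, 8348 and 8387 CPM in Scrambled, 11087, 10857 and 10316 CPM after siR-1 and 3549, 3475 and 3506 CPM after siR-2, and its log2 fold changes were 0.35 (SE 0.0272) and −1.27 (SE 0.0276). Ccn4 was at 201, 193 and 199 CPM in Scrambled and 98.1, 104 and 106 CPM after siR-2, a log2 fold change of −0.96 (SE 0.0330). Postn was at 1487, 1535 and 1500.0 CPM in Scrambled and 789.6, 833 and 829 CPM after siR-2 (log2 fold change −0.90, SE 0.0295), and Thbs2 at 305, 304 and 302 CPM and 193, 187 and 192 CPM (log2 fold change −0.69, SE 0.0260). In each of the 4 genes, every siR-2 library was below every Scrambled library.

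Among the remaining genes under IL-17, Ccn1 was at 606, 644 and 619.6 CPM in Scrambled, 939.7, 934 and 893 CPM after siR-1 and 533, 563 and 546 CPM after siR-2, the siR-1 libraries standing above all others. Its log2 fold changes were 0.56 (SE 0.0300) and −0.21 (SE 0.0299). Ccn2 was at 2834 ± 144 CPM in Scrambled, 3335 ± 72.1 CPM after siR-1 and 2109 ± 65.4 CPM after siR-2 (SD, n = 3), with log2 fold changes of 0.22 and −0.45. Ccn5 had log2 fold changes of 0.50 and −0.31, both past the adjusted p. Thbs1 was at 9501, 9359 and 9503 CPM in Scrambled and 12883, 12993 and 12430.4 CPM after siR-2, again the top group, with a log2 fold change of 0.41 (SE 0.0269, adjusted p = 6.65e-10). Sparc was higher with siR-1 (0.29, SE 0.0237, adjusted p = 2.97e-08), and Ccn4 was the gene lowered by it (−0.12, SE 0.0325, adjusted p = 0.00769). The 4 mesothelial markers summed to 78.7 to 85.3 CPM in IL-17 Scrambled, 79.1 to 80.1 CPM after siR-1 and 48.1 to 51.7 CPM after siR-2, and the 5 macrophage markers to 53.9 to 54.3 CPM, 61.8 to 67.3 CPM and 74.1 to 81.1 CPM. The 6 cardiomyocyte markers, with only Tnnt2 at 1 CPM or more, summed to 69.7 to 76.6 CPM, 32.0 to 35.6 CPM and 22.8 to 25.9 CPM in the same order, the 5 smooth muscle and pericyte markers to 85.3 to 89.6 CPM, 73.5 to 76.9 CPM and 64.4 to 69.0 CPM, and the 5 endothelial markers to 45.5 to 50.1 CPM, 38.5 to 44.6 CPM and 40.0 to 44.5 CPM. Most of the smooth muscle and pericyte sum was Cspg4 (82.4, 70.4 and 60.9 CPM on average), with 2 of the 5 under 1 CPM. The part of all these markers in these results was not tested.

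Under TGF-β, the profibrotic cytokine, 6 of the 10 genes passed with siR-1 and 5 did so for siR-2, where 9 and 8 had passed in untreated CFs. For siR-1, 6 were lower and 0 higher in edgeR, beside 11.4% and 11.7% of the 19891 genes tested. All 10 estimates were below 0, so none was higher at an unadjusted p under 0.05 either, and DESeq2 called 7 lower and 0 higher, beside 15.8% and 15.6% of its 15630 genes with an adjusted p. With siR-2, 1 was higher and 4 were lower, beside 15.1% and 14.8%. At the same 1.5-fold limit, stated for IL-17 and assumed here, siR-1 passed for 0 of the 10 in edgeR and in DESeq2 (4.36% of all genes) and siR-2 for 2 (7.51%). In the direct comparison siR-2 was above siR-1 for 6 genes and below it for 3, beside 12.0% of all genes in each direction, and the call of Sparc (0.11, adjusted p = 0.0199) was lost without TGF-β siR-1 replicate 2 or 3 or siR-2 replicate 1 or 3 (adjusted p up to 0.0953). The genes past the limit were the thrombospondins, in opposite directions. Thbs1 was at 2016, 2354 and 2243 CPM in Scrambled, 2083, 2019 and 2116 CPM after siR-1 and 3626, 3432 and 3450.1 CPM after siR-2, with siR-2 on top. Its log2 fold changes were −0.088 (adjusted p = 0.204) and 0.67 (SE 0.0463, adjusted p = 7.39e-09). Thbs2 was at 578, 608 and 617 CPM, 559, 556 and 549.6 CPM and 383, 389.9 and 393 CPM in the same order, siR-2 below all, with a log2 fold change of −0.63 (SE 0.0327, adjusted p = 2.34e-10). The largest fall with siR-1 was that of Postn, from 1115, 1104 and 1089.6 CPM to 875, 836 and 810.2 CPM, while siR-2 gave 1006, 1059 and 1067 CPM. The log2 fold changes of Postn were −0.39 (SE 0.0357, adjusted p = 3.61e-07) and −0.077 (adjusted p = 0.121).

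Fn1, the gene with the strongest response to siR-2 elsewhere, was at 6666, 7106 and 7413 CPM in TGF-β Scrambled libraries, 7261, 6909.7 and 6796 CPM after siR-1 and 6073, 6085 and 5969.9 CPM after siR-2. Scrambled and siR-1 overlapped and siR-2 lay below both, with log2 fold changes of −0.014 (95% interval −0.091 to 0.063) and −0.22 (SE 0.0394, adjusted p = 0.00029). Ccn4 was at 586, 618 and 599 CPM in Scrambled, 504, 471 and 471 CPM after siR-1 and 606, 616 and 607 CPM after siR-2, so that only siR-1 stood apart (log2 fold change −0.32, SE 0.0348). Ccn1 fell by nearly the same amount with each siRNA, from 668, 661 and 674 CPM to 585, 577 and 575 CPM and 578, 560.4 and 595 CPM, and the siRNAs differed by −0.0020 on the log2 scale (95% interval −0.064 to 0.060). Ccn5 was lower with siR-2 (−0.31), Ccn2 and Tnc with siR-1 (−0.16 and −0.30), and Sparc passed with neither (−0.080 and 0.032). The siR-1 value of Thbs2 (−0.11, adjusted p = 0.0159) lost its call without Scrambled replicate 2 or 3 or siR-1 replicate 3 (adjusted p up to 0.0656). In the TGF-β table the mesothelial markers summed to 33.1 to 39.3 CPM in Scrambled, 23.2 to 27.8 CPM after siR-1 and 17.6 to 25.2 CPM after siR-2, and the macrophage markers to 149 to 157 CPM, 120 to 134 CPM and 136 to 140 CPM. The cardiomyocyte markers summed to 5.29 to 5.97 CPM, 3.84 to 4.87 CPM and 3.33 to 3.92 CPM. The smooth muscle and pericyte markers summed to 41.5 to 42.7 CPM, 34.4 to 37.1 CPM and 43.6 to 45.7 CPM. Most of that was Cspg4, at 29.4, 23.2 and 34.9 CPM on average. The endothelial markers summed to 88.5 to 90.0 CPM, 90.9 to 92.2 CPM and 82.4 to 87.3 CPM. The part of all these markers was not tested.

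The stimuli were compared in the Scrambled cells, each in 1 fit over its table and the untreated table. A stimulus and its table cannot be told apart, and both comparisons use the same untreated libraries. With IL-17, 2 genes were higher and 4 lower, beside 6.61% and 6.96% of the 21219 genes tested, and 0 of the 10 passed an absolute log2 fold change of 1 in edgeR or DESeq2, beside 1.39% of all genes. Tnc rose from 1307, 1317 and 1186 CPM to 1840.1, 1722 and 1846 CPM, without overlap, a log2 fold change of 0.50 (SE 0.0378, adjusted p = 1.52e-10). Ccn4 rose from 153, 156 and 149.7 CPM to 201, 193 and 199 CPM (0.36, SE 0.0392, adjusted p = 9.25e-08). Ccn1 fell from 838, 802 and 811 CPM to 606, 644 and 619.6 CPM (−0.39, SE 0.0304, adjusted p = 2.48e-10). The other 3 that were lower, Thbs2 (−0.13), Postn (−0.10) and Sparc (−0.098), changed by small amounts, and Postn and Sparc lost their calls when only the groups compared were fitted (adjusted p = 0.0698 and 0.0835). The call of Postn was also lost without untreated Scrambled replicate 3 or IL-17 Scrambled replicate 1 or 3 (adjusted p up to 0.127). DESeq2 called all 10 genes in this comparison, 6 higher and 4 lower, beside 10.5% and 10.2% of its 15455 genes with an adjusted p. Between these Scrambled groups the 5 smooth muscle and pericyte markers went from 57.7 to 66.5 CPM in untreated to 85.3 to 89.6 CPM in IL-17 libraries. Most of that sum was Cspg4, at 58.5 and 82.4 CPM on average, and 2 of the 5 were under 1 CPM. Of these 5, 1 was higher and 0 lower, beside 6.61% and 6.96% of all genes. The 4 mesothelial markers went from 103 to 115 CPM to 78.7 to 85.3 CPM, and the 6 cardiomyocyte markers, of which only Tnnt2 reached 1 CPM, from 90.2 to 98.0 CPM to 69.7 to 76.6 CPM. The macrophage markers (54.3 to 58.4 CPM and 53.9 to 54.3 CPM) and the endothelial markers (46.8 to 52.6 CPM and 45.5 to 50.1 CPM) lay close together or overlapped, and the part of these markers in the results was not tested.

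In the TGF-β table all 10 genes differed from untreated CFs, 5 higher and 5 lower, beside 29.3% and 28.0% of the 21508 genes tested, and 4 passed an absolute log2 fold change of 1, beside 21.5%. The median absolute log2 difference of the 10 was 0.72, against 0.63 over all genes. Ccn5 was highest in its change, from 190.0, 174 and 203 CPM in untreated Scrambled to 1194, 1123 and 1178 CPM, a log2 fold change of 2.62 (SE 0.0482, adjusted p = 1.81e-22). Ccn4 went from 153, 156 and 149.7 CPM to 586, 618 and 599 CPM (1.97, SE 0.0407, adjusted p = 8.52e-22). Neither gene's groups came near each other. Tnc and Thbs1 were the 2 that fell past the limit. Tnc went from 1307, 1317 and 1186 CPM to 290.0, 276 and 284 CPM (−2.17, SE 0.0456, adjusted p = 1.11e-21), and Thbs1 from 9186, 9118 and 8271 CPM to 2016, 2354 and 2243 CPM (−2.01, SE 0.0481, adjusted p = 8.17e-20). Thbs2 (0.85), Sparc (0.59) and Ccn2 (0.45) were higher. Postn (−0.55), Ccn1 (−0.29) and Fn1 (−0.17) were lower, Fn1 by the least, and the groups of each of the 10 genes were apart.

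**Figure D3:**
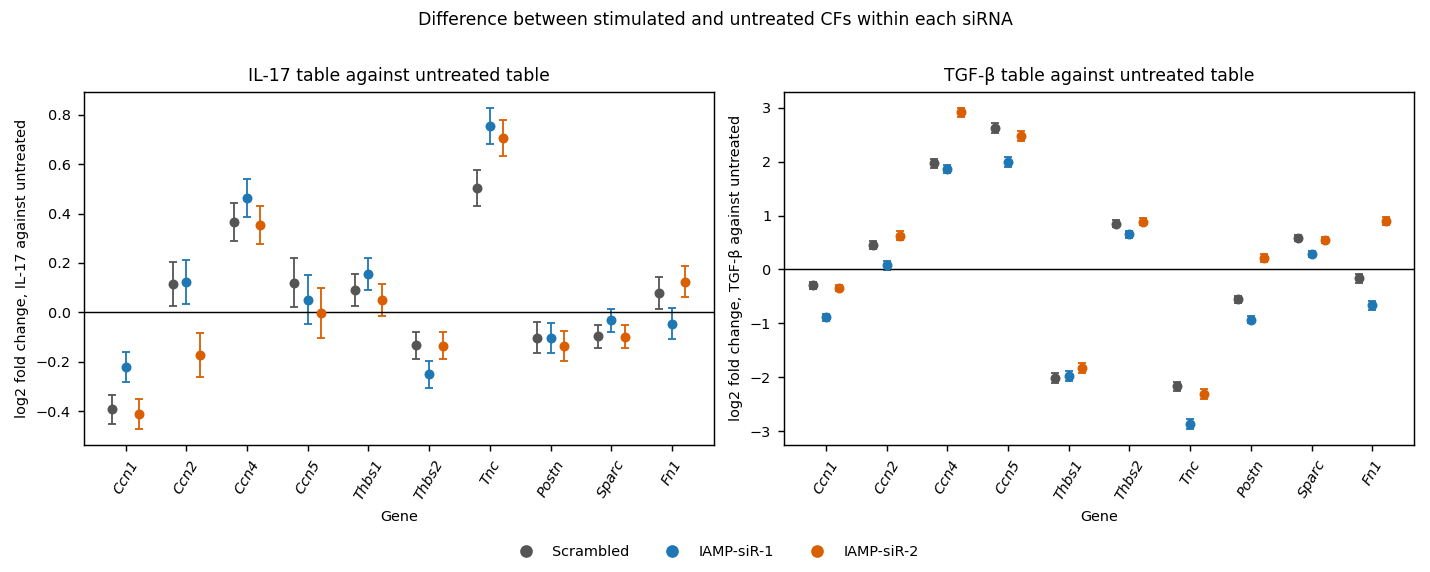
The log2 fold change of stimulated against untreated CFs (vertical axes, of different range) for each gene (horizontal axis) within Scrambled, siR-1 and siR-2, where bars are 95% intervals. In the IL-17 panel Tnc has the largest rises, from 0.50 to 0.75. In the TGF-β panel Ccn4 and Ccn5 are at 1.86 or more and Tnc and Thbs1 at −1.82 or less, while Postn and Fn1 are below 0 in Scrambled and siR-1 and above 0 with siR-2.

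Other genes also set the TGF-β table apart, and the part of these differences in the results was not tested. Of 8 genes usually raised by TGF-β, 5 were higher and 2 lower than in untreated Scrambled cells, beside 29.3% and 28.0% of all genes. Acta2, of smooth muscle actin, had a log2 fold change of 1.55 and Col1a1, of collagen I, of 0.88. The 8 genes usually raised by IL-17 were all higher in the TGF-β table as well as in the IL-17 table, where 6.61% of all genes were higher. Among them the chemokine gene Cxcl5 was at 29.2 ± 1.10 CPM in untreated, 998 ± 35.2 CPM in IL-17 and 1424 ± 55.4 CPM in TGF-β Scrambled libraries (SD, n = 3). The 5 macrophage markers summed to 54.3 to 58.4 CPM in untreated and 149 to 157 CPM in TGF-β Scrambled libraries, and the 5 endothelial markers to 46.8 to 52.6 CPM and 88.5 to 90.0 CPM. The 4 mesothelial markers summed to 103 to 115 CPM and 33.1 to 39.3 CPM, and the 6 cardiomyocyte markers to 90.2 to 98.0 CPM and 5.29 to 5.97 CPM, with all but Tnnt2 under 1 CPM. The 5 smooth muscle and pericyte markers summed to 57.7 to 66.5 CPM and 41.5 to 42.7 CPM. Most of that was Cspg4 (58.5 and 29.4 CPM on average). Of these 5, 3 were higher and 1 lower, beside 29.3% and 28.0% of all genes. The TGF-β samples are labelled as adult fibroblasts, while the column names of their table and the methods call them CFs. The sample titles of all 27 CF libraries begin with AF, so that prefix does not set the TGF-β samples apart. Of the 6 fibroblast markers, 3 were higher (Dcn 1.96, Col1a1 0.88 and Col1a2 0.45 on the log2 scale against untreated CFs) and 2 lower. The 2 lower ones, named after their values were seen, were Pdgfra (−1.47), which encodes a receptor for platelet-derived growth factor, and Tcf21 (−0.65), a transcription factor of cardiac fibroblasts.

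Whether the effect of an siRNA differed with the stimulus was tested as an interaction, in which a shift common to a whole table drops out. Between IL-17 and untreated CFs no gene of the 10 passed an adjusted p of 0.05 together with an absolute difference of at least 1 in edgeR, with either siRNA, beside 0.189% of all genes for siR-1 and 0.165% for siR-2, and DESeq2 gave 0 as well. Without the limit on size, 2 genes passed for siR-1, both with a positive difference, beside 0.895% of all genes with a positive and 1.24% with a negative one. They were Tnc (0.25, SE 0.0534, adjusted p = 0.00795) and Ccn1 (0.17, SE 0.0430, adjusted p = 0.0297). For siR-2, Tnc passed with a positive difference (0.20, SE 0.0534, adjusted p = 0.0452) and Ccn2 with a negative one (−0.29, SE 0.0642, adjusted p = 0.0185), beside 0.688% and 1.20% of all genes. Of these 4, the siR-1 value of Tnc passed in all 25 alternatives. The others rose above 0.05 in 8 (Ccn1, up to 0.118), 4 (Ccn2, up to 0.0636) and 17 (Tnc with siR-2, up to 0.180), of which 8, 4 and 14 left out 1 library. The siR-2 effect on Fn1 differed by 0.045 between these tables (95% interval −0.044 to 0.13). Between TGF-β and untreated CFs, 0 genes passed with the limit for siR-1 in edgeR and DESeq2 (2.36% of all genes) and 1 passed for siR-2 (5.09%). That gene was Fn1, whose siR-2 effect was −1.31 in untreated and −0.22 in TGF-β CFs, a difference of 1.06 (SE 0.0568, adjusted p = 5.98e-13). Ccn4 lay just under the limit at 0.95 (SE 0.0560, adjusted p = 3.89e-12), and passed it without siR-2 replicate 3 of the untreated table. Without the limit on size, 5 genes passed for siR-2, all with a positive difference, beside 14.6% of all genes with a positive and 15.6% with a negative one, the others being Postn (0.76), Thbs1 (0.19) and Ccn2 (0.17). The calls of Thbs1 and Ccn2 were lost in 9 and 5 of the 25 alternatives (adjusted p up to 0.121), for Thbs1 without untreated Scrambled replicate 1 or 2, untreated siR-2 replicate 1 or 3, TGF-β Scrambled replicate 1 or TGF-β siR-2 replicate 1, and for Ccn2 without untreated Scrambled replicate 1 or 2, untreated siR-2 replicate 1 or TGF-β Scrambled replicate 3. For siR-1, 8 genes passed, all with a negative difference (10.4% of all genes, and 9.19% with a positive one), from −0.20 for Thbs2 to −0.70 for Tnc. The remaining 2 for siR-1 were Ccn4 (−0.11) and Thbs1 (0.030). The IAMP transcript itself was lowered less in TGF-β than in untreated CFs, by a difference of 0.73 for siR-1 (adjusted p = 0.00113) and 1.03 for siR-2 (adjusted p = 1.7e-05) on the log2 scale, and the part of this in these differences was not tested.

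A list of 27 further genes of matricellular and related proteins gave the wider family. In untreated CFs 22 were tested, and siR-1 gave 8 higher and 8 lower, against 7 and 8 for siR-2. Over all genes 19.5% were higher and 20.4% lower for siR-1, and 24.4% and 25.0% for siR-2. In IL-17 CFs 23 were tested, with 8 higher and 7 lower for siR-1 and 7 higher and 10 lower for siR-2, and in TGF-β CFs 24, with 2 higher and 8 lower and with 5 higher and 8 lower. The shares of all genes under IL-17 were 20.3% and 21.9% for siR-1, and 25.0% and 25.6% for siR-2. Under TGF-β they were 11.7% and 11.4% for siR-1, and 15.1% and 14.8% for siR-2. Ccn3, another CCN gene, rose past the limit with each siRNA in all 3 tables. It went from 16.8 ± 0.787 CPM in untreated Scrambled to 35.8 ± 1.52 CPM after siR-1 and 45.6 ± 4.17 CPM after siR-2 (SD, n = 3), log2 fold changes of 1.09 and 1.42. Tgfbi, a relative of Postn with the same type of domain, and Sparcl1, a relative of Sparc, fell past the limit with each siRNA in untreated and IL-17 CFs. In untreated CFs Tgfbi had log2 fold changes of −1.43 and −1.52, and Sparcl1 of −1.36 and −1.22. Tnxb, of tenascin X, rose past the limit with each siRNA in IL-17 (1.10 and 0.75) and TGF-β CFs (0.96 and 0.78). In the Scrambled comparison of TGF-β with untreated CFs, 11 of 26 were higher and 6 lower, beside 29.3% and 28.0% of all genes. Among them were the elastic fibre gene Fbln5 (1.79) and Sparcl1 (−2.72). With IL-17, 2 were higher and 2 lower, beside 6.61% and 6.96% of all genes.

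Of 12 genes for receptors of these proteins, all tested, siR-1 gave 8 higher and 3 lower in untreated CFs, against 7 and 3 for siR-2. Under IL-17 the counts were 6 and 3 for siR-1, against 5 and 4 for siR-2, and under TGF-β 7 and 0 for siR-1, against 6 and 1 for siR-2. The shares of all genes in untreated CFs were 19.5% and 20.4% for siR-1, and 24.4% and 25.0% for siR-2. Under IL-17 they were 20.3% and 21.9%, and 25.0% and 25.6%, and under TGF-β 11.7% and 11.4%, and 15.1% and 14.8%. Itga8, the integrin α8 subunit that binds fibronectin and tenascin C, fell past the limit with each siRNA under IL-17 (−0.74 and −1.85). Itgb3, of integrin β3, went from 117 ± 8.02 CPM in untreated to 10.5 ± 1.16 CPM in TGF-β Scrambled libraries, a log2 fold change of −3.48. In that comparison 4 of the 12 were higher and 8 lower, beside 29.3% and 28.0% of all genes. Under IL-17, 4 were higher and 3 lower, beside 6.61% and 6.96% of all genes. The largest changes there, among the genes of both lists past the adjusted p and averaging 10 CPM or more, were those of Cd47, the thrombospondin 1 receptor (0.61), Itga8 (−0.46) and Itgb3 (0.40).

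A further list held 11 targets of YAP and TEAD other than the CCN genes. In untreated CFs siR-1 gave 5 higher and 2 lower, against 3 and 6 for siR-2, and their medians were 0.017 and −0.16 on the log2 scale. The shares of all genes were 19.5% higher and 20.4% lower for siR-1, and 24.4% and 25.0% for siR-2. Ankrd1 had log2 fold changes of −0.029 (adjusted p = 0.476) and −0.34, and Axl of 0.83 and 0.75. The 8 genes usually raised by TGF-β had 7 higher and 0 lower with siR-1 in untreated CFs, and 2 higher and 6 lower with siR-2, beside the same shares of all genes. Their medians were 0.29 and −0.25, beside 0.22 and −0.18 for the 10 genes described here. Of these, Acta2 had log2 fold changes of 0.24 and −0.77. In TGF-β CFs Acta2 was at −0.63 and −1.03.

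Across the 27 CF libraries some of the genes varied together, which is given as a description, since the libraries share tables and groups. Differences between the tables enter these values, and the siRNAs could still move such genes apart within a table. With siR-1 in untreated CFs, for example, mean Ccn5 rose from 189 to 281 CPM while mean Ccn4 fell from 153 to 133 CPM. Pearson's r of log2(CPM + 1) was 0.95 between Ccn4 and Ccn5, 0.95 between Ccn5 and Sparc, and 0.93 between Thbs1 and Tnc, while Ccn5 and Thbs1 had r = −0.98. Postn and Fn1 had r = 0.80 with each other and −0.29 and 0.20 with Ccn5. Among 9260 genes averaging 10 CPM or more, those most like Fn1 were Dpp9 (0.98), Nudcd1 (0.98) and 4930402H24Rik (0.98). For Postn they were Ptma (0.96), Armcx3 (0.96) and Anapc5 (0.95), for Ccn2 Itfg2 (0.94), Tfpi2 (0.93) and Slc2a10 (0.93), and for Tnc Cdk17, Errfi1 and Nop58 (all 0.99).

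In hearts the question was whether loss of IAMP altered these genes without injury. None of the 10 passed in edgeR (0% of the 16675 genes tested, of which 601 had an unadjusted p under 0.05), and 0 of the 10 had an unadjusted p under 0.05 in edgeR or DESeq2. DESeq2 called 3 genes, none of them of the 10, and had 343 at an unadjusted p under 0.05. Sparc was the most abundant, at 309, 288, 321 and 322 CPM in Het and 309.8, 318, 290.2 and 294 CPM in IAMP-KO, with a log2 fold change of −0.033 (95% interval −0.13 to 0.064). The groups overlapped, as they did for every one of the 10. Thbs2, with an unadjusted p of 0.0888, was at 18.2, 15.1, 16.6 and 16.5 CPM in Het and 16.8, 18.3, 17.9 and 20.8 CPM in IAMP-KO (log2 fold change 0.15, 95% interval −0.0067 to 0.31). Fn1 was at 36.0, 31.5, 41.2 and 47.6 CPM in Het and 41.9, 40.9, 37.8 and 44.3 CPM in IAMP-KO (0.076, 95% interval −0.15 to 0.30), so that a change of the size seen with siR-2 in untreated CFs lay outside the interval. The settings are unlike, whole hearts with a germline allele and Het controls against cultured CFs after siRNA. In those CFs siR-1 raised Fn1. Postn was at 18.3, 15.6, 23.1 and 28.6 CPM and 25.2, 19.3, 24.3 and 19.8 CPM (0.047, 95% interval −0.31 to 0.41). Thbs1 had the widest spread, with 7.32, 10.7, 16.7 and 29.8 CPM in Het and 14.3, 17.9, 10.2 and 22.6 CPM in IAMP-KO, and its interval ran from −0.90 to 0.92.

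Ccn1 and Ccn2 were next to Sparc in level per kilobase in Het hearts, at 20.8 and 25.7 CPM per kilobase against 81.8, and overlapped with each other. Ccn1 ran from 28.7 to 56.8 CPM in Het and from 26.0 to 48.0 CPM in IAMP-KO, and Ccn2 from 54.5 to 94.3 CPM and from 64.4 to 92.8 CPM. Ccn5 was at 3.09 ± 0.366 CPM in Het and 2.59 ± 0.490 CPM in IAMP-KO (SD, n = 4), and Ccn4 at 1.19 ± 0.249 CPM and 1.39 ± 0.507 CPM. Tnc rested on few reads, with 17 to 34 counts per Het heart and 21 to 38 per IAMP-KO heart. The 6 fibroblast markers summed to 513 to 780 CPM in Het and 660 to 691 CPM in IAMP-KO.

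**Figure D4:**
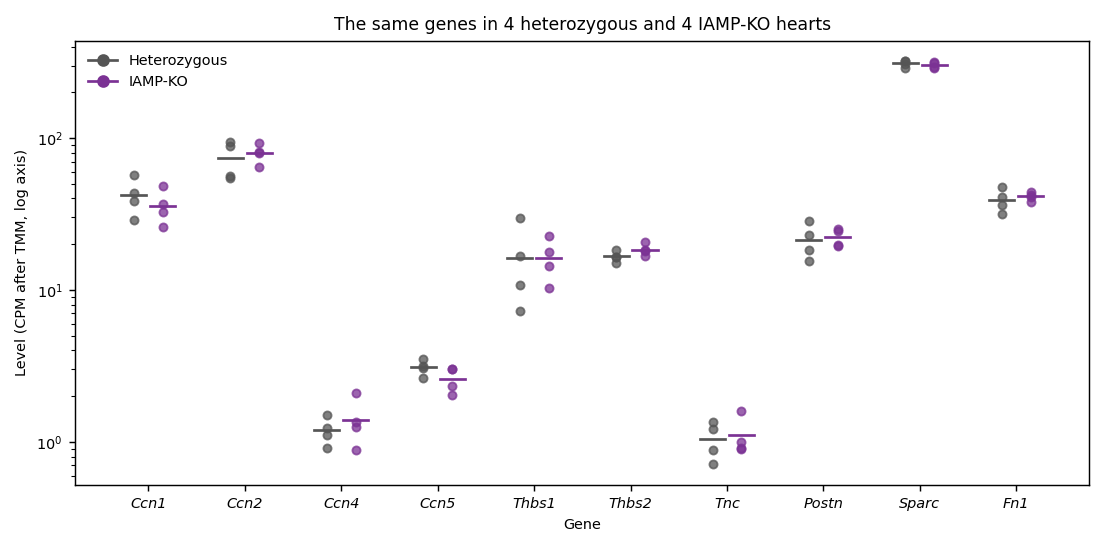
Levels in CPM after TMM (vertical axis, logarithmic) of the 10 genes (horizontal axis) in 4 Het and 4 IAMP-KO hearts. Points are hearts and short lines are means, and the groups overlap for every gene.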

How the data were processed

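RNA-Seq of 35 libraries was analysed from 4 tables of 55487 genes. According to the methods, the authors trimmed reads with Cutadapt, checked them with FastQC, aligned them with HISAT2, quantified them with StringTie and tested with DESeq2. The deposited CF values were taken to be estimated counts derived from StringTie coverage. They are whole numbers among which genes seen in a single library most often stood at 6, so their spread was not taken as that of single reads. The deposited heart values are counts per gene. Positions are from GENCODE vM21 on GRCm38.

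From these, genes were filtered with filterByExpr, normalized by TMM and tested with edgeR 4.0.16 in R 4.3.3 (glmQLFit, robust, glmQLFTest), 1 fit of 9 libraries per CF table, 1 of 8 hearts, and joint fits of 18 libraries for stimuli and interactions. P values were adjusted by Benjamini-Hochberg over all genes tested, with a limit of 0.05. SEs were derived from F, and 95% intervals are 1.96 SE on each side. The limits of 1 on the log2 scale (untreated) and of 1.5-fold (IL-17) are those of the methods. DESeq2 1.42.0, size factors, filters, division by 6, fits of the compared groups, a replicate block and leaving out each library were the alternatives, and the fits were tested on simulated counts. The heart columns were tied to genotypes but not to animals. The 10 genes, the gene lists and the tests were chosen with earlier results of these data known. Genes outside the 10 were named if they passed the fold limit with both siRNAs in a table, or had the largest change with a stimulus in the 2 related lists, and from check lists only the most abundant were named. Precision is limited by 104139670 to 119232309 estimated counts per CF library and 23497027 to 23857313 counts per heart.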

Additional observations from a re-analysis of the deposited data

Results flagged for a closer look

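Tnc in IAMP-KO hearts had 1 heart far from the others, at 1.60 CPM against 0.912, 0.903 and 0.991 CPM, and the gap took up 0.874 of the range over the 4 samples, above Dixon's 95% critical value. These are 21 to 38 counts per heart, and chance marks about 1 in 20 groups in this way.

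The siR-2 effect on Fn1 differed between TGF-β and untreated CFs by 1.06 on the log2 scale (SE 0.0568, adjusted p = 5.98e-13, edgeR interaction), with log2 fold changes of −0.22 and −1.31. The IAMP transcript was also lowered less by siR-2 under TGF-β, by 1.03 on the log2 scale, and the part of this in the Fn1 difference was not tested.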

How the results depend on the processing

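Single-gene values kept their direction and their side of the threshold in 2952 of the recomputed cases, lost a call in 30, gained 1 in 25 and changed sign in 53, all of the last among values that were not called, the call of an interaction here including the limit of 1 in size. DESeq2 called 10 genes in place of 6 for IL-17 against untreated CFs. Leaving out 1 library at a time gave 1 to 2 genes past the limit with siR-2 in untreated CFs and 1 to 2 genes whose siR-2 effect differed between TGF-β and untreated CFs, the second gene in both being Ccn4, without untreated siR-2 replicate 3. The cause was not tested. The siR-1 interaction of Postn with IL-17, −0.00049, became 0.0049 without the filter, 0.0064 with at least 10 counts in every library and 0.0062 with estimated counts divided by 6, and that of Ccn2 became −0.0024 when only the groups compared were fitted. Values that crossed 0 on leaving out 1 library had these ranges. For siR-1 under TGF-β, −0.049 to 0.023 for Fn1. For siR-2 against siR-1 under TGF-β, −0.024 to 0.019 for Ccn1. For the siR-1 interaction with IL-17, −0.020 to 0.025 for Postn and −0.034 to 0.071 for Ccn2. For the siR-2 interaction with IL-17, −0.059 to 0.0087 for Postn, −0.047 to 0.0079 for Ccn1, −0.052 to 0.048 for Ccn4, −0.069 to 0.0029 for Thbs1, −0.013 to 0.016 for Thbs2 and −0.020 to 0.014 for Sparc. For the siR-1 interaction with TGF-β, −0.032 to 0.087 for Thbs1. For the siR-2 interaction with TGF-β, −0.077 to 0.0088 for Ccn1 and −0.072 to 0.0023 for Sparc. In hearts, −0.075 to 0.22 for Postn, −0.0070 to 0.25 for Ccn2, −0.041 to 0.39 for Ccn4, −0.16 to 0.23 for Tnc, −0.23 to 0.49 for Thbs1 and −0.013 to 0.18 for Fn1. With the replicate number as a block, 8 genes in place of 9 passed with siR-1 in untreated CFs, Thbs2 being lost (adjusted p = 0.053). Without the limit on size, the siR-2 interactions of Tnc with IL-17 (adjusted p = 0.0569) and of Thbs1 with TGF-β (adjusted p = 0.053) were also lost, and the block changed no other call of the 10 genes. Same-numbered libraries correlated from −0.43 to 0.17 after removal of group means, which gave no sign that the numbers pair the samples. With 3 libraries per group these correlations cannot exclude pairing. The heart columns carry no number, so no paired analysis was possible there. Depth limits Tnc and Ccn4 in hearts, with few counts each, and the 2 confounded stimuli limit every comparison across tables.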
